A study of Mus musculus with 20 samples.

Results

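Histone lysine methyltransferases and demethylases outside Polycomb repressive complex 2 were measured in mouse kidney cortex. The 34 genes were chosen by name from the known enzyme families. They are the rows whose mouse Ensembl identifier maps to 1 of 34 symbols, 34 of the 43430 genes counted, and all 34 were among the 16152 genes that passed the filter on low counts. The libraries are poly(A) RNA from the renal cortex of 20 male C3H/HeJ mice on a high-fat diet (HFD), in 4 groups of 5. WT mice or Sweet Pee (SP) mice began the diet at 10 weeks of age. After 8 weeks of HFD they were injected 3 times a week for 8 weeks with placebo (DMSO) or with a MAT2A inhibitor (MAT2Ai) at 10 mg/kg. SP mice carry a germline missense mutation in *Slc5a2*, which encodes SGLT2, the glucose cotransporter of the proximal tubule. The groups are named WT placebo, WT MAT2Ai, SP placebo and SP MAT2Ai. All of them share the diet and the injections, and the mutation is present in every cell of an SP mouse. In bulk tissue, fewer cells of a type and less RNA per cell cannot be told apart.

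Methylation of histone lysines marks promoters, enhancers, transcribed gene bodies and silenced chromatin, depending on which lysine carries it. The writers of these marks all draw the methyl group from S-adenosylmethionine (SAM), the product of MAT2A, while the erasers are a FAD-dependent enzyme, KDM1A, and a large family of dioxygenases that use iron and 2-oxoglutarate. The enzymes are expressed in nearly all cell types, the proximal tubule cells that make up much of the cortex included. The comparisons here ask whether the RNA of the enzymes differed when the MAT2A inhibitor was given or when SGLT2 was mutated. RNA levels say nothing of SAM, of enzyme activity or of the marks themselves, which were not measured in these libraries. The paper reports SAM in SP kidneys as lower with the inhibitor, as a trend.

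With the edgeR quasi-likelihood test none of the 34 genes passed an adjusted p under 0.05 in any comparison. Of all tested genes 0.00% to 1.84% passed. DESeq2 called a member in 3 of the 7 comparisons, in which it called 1.19% to 7.45% of all tested genes. With limma-voom a member was called in 1, along with 2.46% of all tested genes. The intervals of the differences were narrow. In the 4 comparisons of groups and in both averaged comparisons, the 95% interval of all 34 log2 fold changes lay within 1.5-fold in either direction. For the interaction of genotype and treatment the interval lay within 1.5-fold for 28 members and within 2-fold for 34. The median standard error of a member's log2 fold change between groups of 5 was 0.08. Each interval was taken singly and used 1 spread per gene shared by the 4 groups, so it may be too narrow where 1 group varied more.

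Each library held 53296824 to 79339949 reads counted in genes, and a member had between 37 and 8437 reads in a library. The tissue label was met by 8 proximal tubule markers, whose summed level was 6580 to 11570 CPM (counts scaled to a common library size) with none of them at 0. *Slc5a2* itself was at 229 to 518 CPM in the 10 WT libraries and at 40.2 to 85.9 CPM in 8 SP libraries. The libraries labelled SP placebo 1 and SP placebo 2 had 241 and 282 CPM, above all other SP libraries. They lay within the WT range only through WT MAT2Ai 2, at 229 CPM. The next lowest WT library, WT MAT2Ai 4, had 325 CPM. Since the mutation is a missense change, the RNA level alone does not show the genotype. The library WT MAT2Ai 2 stood apart in another way, with 1214 CPM of the injury marker *Havcr1* against 13.7 to 74.4 in the 19 others. Where leaving out SP placebo 1 and 2 or WT MAT2Ai 2 moved a named member's log2 fold change by over 1.5 times, the value without them is given.

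The RNA of most members was of middling abundance. Compared between genes as RPKM, which is CPM per kilobase of exon, the means over 20 libraries ran from 0.261 for *Suv39h2* to 18.9 for *Kmt5a*, and 30 of 34 members lay between 1 and 10 RPKM. The median of the members was 2.35 RPKM, against 2.54 over the 16060 tested genes with a known length. The members were long transcripts, with a median exonic length of 9826.5 bases against 3986.5 over the tested genes. They also varied little between libraries. The standard deviation (SD) of log2 CPM over all libraries had a median of 0.127 among members and 0.223 among all tested genes. The highest library exceeded the lowest by less than 1.5-fold in 20 members. Members and all tested genes were not matched for read number, so the lower SD is not shown to be lower variation between mice.

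**Figure D1:**
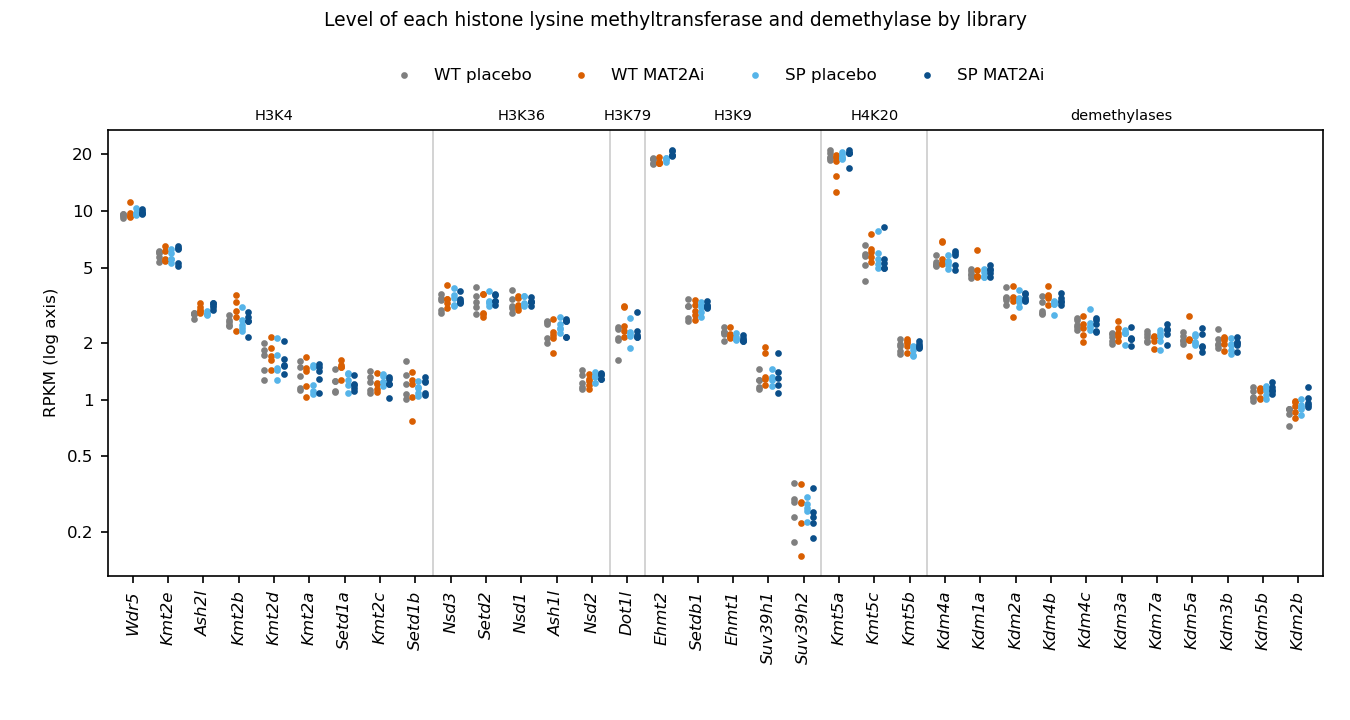
Level of the 34 members in RPKM on a log axis, 1 point per library, colored by group and sorted within each role by mean level. *Kmt5a* and *Ehmt2* lie highest at means of 18.9 RPKM, *Suv39h2* lies lowest at 0.261 RPKM, and the 4 groups of points overlap for most genes.

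The H3K4 methyltransferases and their core subunits spanned 1.18 to 9.73 RPKM. *Wdr5*, which presents the histone tail to the complexes, had a mean of 9.73 RPKM and the smallest SD of log2 CPM among the members, 0.06. *Ash2l*, another subunit of every such complex, had 2.96 RPKM. *Kmt2e*, a relative of the catalytic chains with no clear methyltransferase activity of its own, had 5.83 RPKM. *Kmt2b*, which methylates promoters, had 2.69 RPKM, within the spread of *Ash2l*, and its relative *Kmt2a* 1.34 RPKM. *Kmt2d* and *Kmt2c*, which monomethylate enhancers, had 1.66 and 1.23 RPKM. *Setd1a* and *Setd1b*, the chains of the SET1 complexes that trimethylate H3K4 at active promoters, had 1.29 and 1.18 RPKM.

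Among the H3K36 methyltransferases, *Nsd3* (3.39 RPKM), *Setd2* (3.31 RPKM) and *Nsd1* (3.29 RPKM) differed by less than the SD over libraries, which was 0.228 to 0.332 RPKM. SETD2 travels with the elongating polymerase and trimethylates H3K36, whereas the NSD enzymes dimethylate it. *Ash1l* had 2.36 RPKM and *Nsd2* 1.29 RPKM, both lower. *Dot1l*, the only H3K79 methyltransferase, had 2.33 RPKM.

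The H3K9 and H4K20 writers held both the most and the least abundant members. *Ehmt2* (G9a), which with its partner EHMT1 mono- and dimethylates H3K9 in euchromatin, had 18.9 RPKM while *Ehmt1* had 2.17 RPKM. *Setdb1*, which trimethylates H3K9 at transposable elements, had 3.05 RPKM. *Suv39h1* and *Suv39h2*, the enzymes of pericentromeric heterochromatin, had 1.35 and 0.261 RPKM. *Kmt5a*, the H4K20 monomethyltransferase, had 18.9 RPKM with an SD of 2.01. Its level could not be set apart from that of *Ehmt2*, whose SD was 0.942 RPKM. *Kmt5c* and *Kmt5b*, which add the further methyl groups, had 5.85 and 1.91 RPKM.

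The 11 demethylases lay in a narrower band, from 0.917 RPKM for *Kdm2b* to 5.56 RPKM for *Kdm4a*. *Kdm4a*, *Kdm4b* and *Kdm4c*, which remove methyl groups from trimethylated H3K9 and H3K36, had 5.56, 3.29 and 2.48 RPKM. *Kdm1a* (LSD1) had 4.75 RPKM. *Kdm2a* and *Kdm2b*, H3K36 demethylases that bind unmethylated CpG islands, had 3.45 and 0.917 RPKM. *Kdm3a* and *Kdm3b*, which act on H3K9, had 2.19 and 1.99 RPKM. *Kdm5a* and *Kdm5b*, which act on H3K4, had 2.09 and 1.10 RPKM. *Kdm7a* had 2.16 RPKM. Summed by role, the levels were 27.9 RPKM for H3K4, 13.6 for H3K36, 2.33 for H3K79, 25.7 for H3K9, 26.7 for H4K20 and 30.0 RPKM for the demethylases.

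Most members with a listed promoter shared a feature that played no part in their choice, a CpG-rich start. RefSeq (GRCm38.p6) gave promoter windows, the 250 bases before a start site, for 22 of the 34 members, 33 windows in all. Their median GC content was 67.6% against 52.4% over all 32851 windows, which include those of genes not expressed in kidney, and their median number of CpGs was 25 against 6. The observed-to-expected CpG ratio exceeded 0.6 in 29 of 33 windows and in 34% of all windows. The GC box GGGCGG, searched on both strands, was found in 25 of 33 member windows and in 32.7% of all. For CCAAT the numbers were 11 windows and 33.8%, for the ETS motif CCGGAAG 4 windows and 6.91%, and for the E-box CACGTG 3 windows and 6.02%. The window of *Ehmt2* is shown because this gene came nearest to the threshold in the comparisons described next. CpGs are in capitals, and the sequence runs 5′ to 3′ on the strand of the gene. It lies at chr17:34898224-34898473 (+ strand) and holds 18 CpGs, with a GC content of 67.6% that equals the members' median.
Ehmt2: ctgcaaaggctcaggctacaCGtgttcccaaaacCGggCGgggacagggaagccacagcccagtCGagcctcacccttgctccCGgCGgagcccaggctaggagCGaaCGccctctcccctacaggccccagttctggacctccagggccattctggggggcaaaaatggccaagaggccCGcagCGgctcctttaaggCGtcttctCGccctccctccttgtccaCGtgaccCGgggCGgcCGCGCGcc

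With the MAT2A inhibitor the members in SP mice stayed close to their placebo levels. In SP MAT2Ai against SP placebo 0 of 34 members passed an adjusted p under 0.05 by the edgeR quasi-likelihood test, as did 0.0186% of all tested genes. DESeq2 and limma-voom also called 0 members, and they called 0.167% and 0.105% of all tested genes. At an unadjusted p under 0.05 stood 2 members, or 5.88%, against 5.92% of all tested genes. The median log2 fold change was 0.03 over the members and 0.00 over all tested genes, with 23 members above 0 and 11 below. By role, 7 of 9 H3K4 genes, 2 of 5 H3K36 genes, 3 of 5 H3K9 genes, 2 of 3 H4K20 genes and 8 of 11 demethylases had a positive value.

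The members with the smallest p in SP mice were *Ash2l* and *Ehmt2*. *Ash2l* measured 25.4, 25.5, 25.5, 26.3 and 25.1 CPM in SP placebo 1 to 5 and 27.7, 28.6, 29.2, 26.7 and 29.1 CPM in SP MAT2Ai 1 to 5. Every library with the inhibitor lay above every library with placebo. The log2 fold change was 0.14 ± 0.04 (SE, edgeR, adjusted p = 0.762). *Ehmt2* measured 104, 103, 99.4, 105 and 103 CPM in SP placebo 1 to 5 and 107, 114, 109, 109 and 115 CPM in SP MAT2Ai 1 to 5. Here too the groups did not overlap, and the log2 fold change was 0.11 ± 0.04 (edgeR, adjusted p = 0.833). Groups without overlap were found for these 2 of 34 members and for 1.58% of all tested genes. *Kmt5b*, at 0.10 ± 0.06 (adjusted p = 0.939), and *Kdm2b*, at 0.12 ± 0.08 (adjusted p = 0.959, edgeR), followed. The value of *Kdm2b* was 0.06 without SP MAT2Ai 1 and 0.07 without SP placebo 1 and 2.

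Without SP placebo 1 and 2 the log2 fold changes were 0.15 for *Ash2l* and 0.12 for *Ehmt2*, and the adjusted p (edgeR) was 0.9999 for both. Some markers of other cells of the cortex had lower values in the same comparison, though none of them passed. The sum of 5 endothelial markers was 92.8 to 157 CPM in SP placebo and 72.8 to 107 CPM in SP MAT2Ai, with none of the markers at 0, and 3 of the 5 had an unadjusted p under 0.05 and 0 passed. The sum of 6 lymphocyte markers was 2.97 to 6.24 CPM in SP MAT2Ai, below all SP placebo libraries, which reached 21.4 CPM, with none at 0. Only 2 of the 6 had a mean of 1 CPM or more. Of the 5 tested lymphocyte markers, 3 had an unadjusted p under 0.05 and 0 passed, and their median log2 fold change was -0.82. The part of such cells in the values of *Ash2l* and *Ehmt2* was not tested.

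In WT mice, too, the inhibitor went with no call among the members. In WT MAT2Ai against WT placebo 0 of 34 members passed with edgeR, DESeq2 or limma-voom, and 0.00% of all tested genes passed with edgeR, 1.33% with DESeq2 and 0.0124% with limma-voom. At an unadjusted p under 0.05 stood 5 members (14.7%), 4 higher and 1 lower, against 15.7% of all tested genes. That number was 2 without WT MAT2Ai 2, 1 without WT placebo 2 and 2 with limma-voom. The median log2 fold change was 0.02 over the members and 0.01 over all tested genes, with 18 members above 0 and 16 below. The values spread more than in SP mice, from -0.20 to 0.31. No member had groups without overlap, as did 2.19% of all tested genes.

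*Setd1a* had the smallest p in WT mice. It measured 7.55, 7.48, 8.50, 8.55 and 9.85 CPM in WT placebo 1 to 5 and 10.1, 10.3, 10.1, 8.67 and 11.0 CPM in WT MAT2Ai 1 to 5. The highest placebo library, 5, lay above the lowest library with the inhibitor, 4, and the log2 fold change was 0.26 ± 0.09 (edgeR, adjusted p = 0.218). *Setd1a* lies on chromosome 7 (mm10, 127776670 to 127800122), 465.5 kb before *Slc5a2*. In GENCODE M21 52.3% of its exonic bases are shared with exons of other genes, 9430064I24Rik on the other strand and Gm49388 on the same strand. Since the strand setting of the counting is not given in the sources used here, part of its count may belong to them.

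*Kdm4b* measured 13.9, 14.5, 16.1, 14.1 and 17.3 CPM in WT placebo 1 to 5 and 17.4, 17.3, 15.4, 16.9 and 19.5 CPM in WT MAT2Ai 1 to 5. Its log2 fold change was 0.19 ± 0.07 (edgeR, adjusted p = 0.234), and the groups overlapped in the range of 15.4 to 17.3 CPM. *Dot1l* measured 14.1, 17.9, 20.7, 18.5 and 21.1 CPM in WT placebo 1 to 5 and 18.7, 27.3, 21.4, 20.1 and 27.0 CPM in WT MAT2Ai 1 to 5. Libraries 2 and 5 lay above all the others, and the log2 fold change was 0.31 ± 0.13 (edgeR, adjusted p = 0.261). Its interval reached 1.49-fold, the widest upper bound of this comparison.

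*Kmt5a* was the member whose mean was lower. It measured 101, 111, 98.1, 102 and 107 CPM in WT placebo 1 to 5 and 102, 66.6, 97.2, 81.5 and 105 CPM in WT MAT2Ai 1 to 5. Libraries 2 and 4 were low and the other 3 lay within the placebo range or just below it. The log2 fold change was -0.20 ± 0.09 (edgeR, adjusted p = 0.303) and -0.11 without WT MAT2Ai 2. It was -0.01 without replicates 2, 3 and 4, a fit without the low libraries that left only WT MAT2Ai 1 and 5. *Ash2l* measured 25.6, 25.4, 25.9, 25.9 and 23.9 CPM in WT placebo 1 to 5 and 27.6, 29.0, 25.8, 26.4 and 26.7 CPM in WT MAT2Ai 1 to 5. Its log2 fold change of 0.10 ± 0.04 (edgeR, adjusted p = 0.307) had the sign it had in SP mice.

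Markers of injured tubules were higher in most WT MAT2Ai libraries than in WT placebo, and by far the highest in 1. The sum of 8 such markers was 354 to 448 CPM in WT placebo and 482, 6888, 801, 506 and 386 CPM in WT MAT2Ai 1 to 5. All 8 had positive values, with a median log2 fold change of 2.63. Of these, 6 had an unadjusted p under 0.05 and 0 passed (edgeR). These values were not computed without WT MAT2Ai 2. Proximal tubule markers summed to 6580 CPM in WT MAT2Ai 2 and to 8795 to 11570 CPM in the 19 other libraries. Without WT MAT2Ai 2 the log2 fold changes were 0.24 for *Setd1a*, 0.19 for *Kdm4b* and 0.23 for *Dot1l*, with adjusted p of 0.475, 0.504 and 0.624 (edgeR). The sum of 4 RNAs that are retained in the nucleus was 653 to 1057 CPM in WT placebo and 1056 to 2040 CPM in WT MAT2Ai, with none at 0, their median log2 fold change was 0.76, and 2 of the 4 had an unadjusted p under 0.05 and 0 passed. The part of injured tubules or of nuclear RNA in the members' values was not tested.

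**Figure D2:**
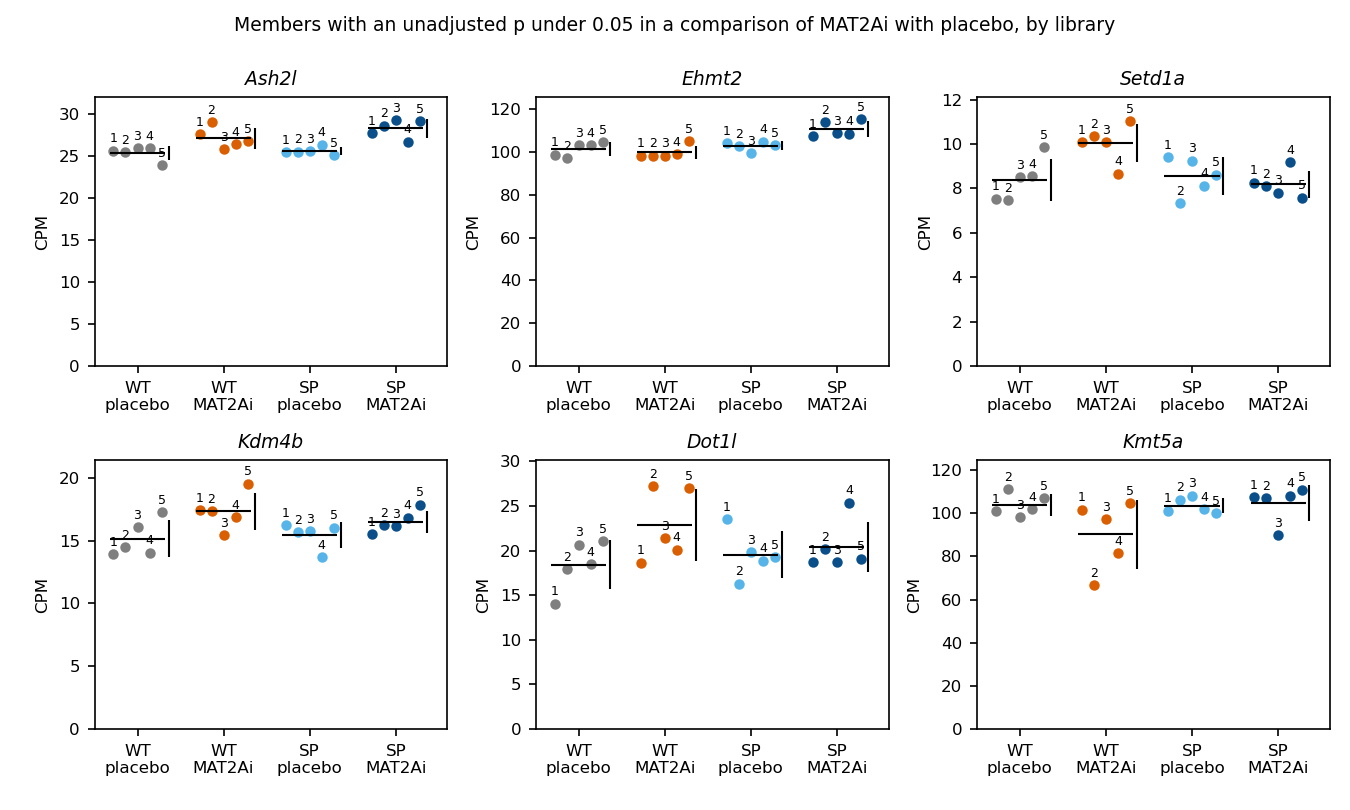
CPM of the members with an unadjusted p under 0.05 in a comparison of MAT2Ai with placebo, 1 numbered point per library, with the mean as a horizontal line and the SD as a vertical bar (n = 5 per group) and the axis from 0. The SP MAT2Ai points of *Ash2l* and *Ehmt2* lie above all SP placebo points, and WT MAT2Ai 2 is low for *Kmt5a* at 66.6 CPM.

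Genotype alone went with no member. In SP placebo against WT placebo 0 of 34 members passed with edgeR, DESeq2 or limma-voom, against 0.00% of all tested genes with edgeR, 0.0433% with DESeq2 and 0.0248% with limma-voom. There were 0 members with an unadjusted p under 0.05, against 3.75% of all tested genes. The smallest p values belonged to *Ehmt1* (-0.08 ± 0.05), *Kdm2b* (0.11 ± 0.08), *Kdm3b* (-0.09 ± 0.07) and *Kmt5b* (-0.07 ± 0.06), all with an adjusted p of 1 (edgeR). All 5 H3K36 genes had positive values, between 0.00 and 0.08. No member had groups without overlap, as did 1.19% of all tested genes. Without the libraries SP placebo 1 and 2 the value was -0.10 for *Ehmt1* and 0.16 for *Kdm2b*, and without SP placebo 2 it was -0.06 for *Kdm3b*. Without WT placebo 5 the values were -0.05 for *Ehmt1* and -0.03 for both *Kdm3b* and *Kmt5b*, and without WT placebo 3 that of *Kdm2b* was 0.06.

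Under the inhibitor the genotypes differed in some genes, none of them a member with edgeR. In SP MAT2Ai against WT MAT2Ai 0 of 34 members passed with edgeR, against 1.84% of all tested genes (298 genes). That count was 0 without SP MAT2Ai 3 or without SP MAT2Ai 5, 1 without SP MAT2Ai 2 and 2 with the compared groups alone. It was 774 without WT MAT2Ai 4, 769 without WT MAT2Ai 5 and 363 with a correction for gene length. DESeq2 called 2 members and 7.45% of all tested genes, and limma-voom 1 member and 2.46%. At an unadjusted p under 0.05 stood 3 members (8.82%), 2 higher and 1 lower, against 21.8% of all tested genes. The median log2 fold change was 0.00 over the members and -0.02 over all tested genes, with 17 members on either side of 0.

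*Ehmt2* came closest to the threshold. It measured 98.3, 98.3, 98.4, 99.0 and 105 CPM in WT MAT2Ai 1 to 5, all below the SP MAT2Ai libraries at 107 to 115 CPM. It was the 1 member of 34 whose groups did not overlap, against 3.40% of all tested genes. The log2 fold change was 0.15 ± 0.04 (edgeR, adjusted p = 0.0549). It passed with DESeq2 (adjusted p = 0.00127), with limma-voom (adjusted p = 0.0396), with a correction for gene length (edgeR, adjusted p = 0.0436) and without WT MAT2Ai 5 (edgeR, adjusted p = 0.0325). The adjusted p lay further from the threshold in other edgeR fits, at 0.103 with no filter on low counts, 0.149 without SP MAT2Ai 5 and 0.261 with the compared groups alone. Without WT MAT2Ai 2 the value was 0.15 again (edgeR, adjusted p = 0.0713). Without replicates 2, 3 and 4, which left only WT MAT2Ai 1 and 5, it was 0.12 (edgeR, adjusted p = 0.302). The 4 group means of *Ehmt2* were 101 ± 3.24 CPM in WT placebo, 99.9 ± 3.01 in WT MAT2Ai, 103 ± 2.10 in SP placebo and 111 ± 3.63 in SP MAT2Ai (SD, n = 5 each). The gene lies on chromosome 17 (mm10, 34898469 to 34914052), and its exons are shared with no other annotated gene.

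*Setd1a* had the opposite sign, with 8.26, 8.09, 7.82, 9.18 and 7.59 CPM in SP MAT2Ai 1 to 5 against 8.67 to 11.0 CPM in WT MAT2Ai. Of these, SP MAT2Ai 4 reached into the WT range, and the log2 fold change was -0.29 ± 0.09 (edgeR, adjusted p = 0.0786). It passed with DESeq2 (adjusted p = 0.0374) and without WT MAT2Ai 4 (edgeR, adjusted p = 0.0411), and without WT MAT2Ai 2 it was -0.28 (edgeR, adjusted p = 0.130). *Kmt5a*, at 0.21 ± 0.09 (adjusted p = 0.192), and *Kmt2b*, at -0.19 ± 0.10 (adjusted p = 0.295, edgeR), followed. Without WT MAT2Ai 2 their values were 0.12 and -0.11. Injured tubule markers differed in the same comparison, with 3 of 8 called lower in SP MAT2Ai, 7 of 8 at an unadjusted p under 0.05 and a median log2 fold change of -2.61. Their sums were 331 to 516 CPM in SP MAT2Ai, with none at 0. In WT MAT2Ai 1 to 5 the sums were 482, 6888, 801, 506 and 386 CPM. The marker calls and their median were not computed without WT MAT2Ai 2, which was far above the others. Macrophage markers differed as well, with 3 of 6 called lower in SP MAT2Ai and sums of 25.6 to 53.3 CPM against 49.0 to 79 CPM in WT MAT2Ai, with none at 0. Endothelial markers summed to 72.8 to 107 CPM against 69.5 to 203 CPM. The part of all these cells in the values of *Ehmt2* and *Setd1a* was not tested.

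**Figure D3:**
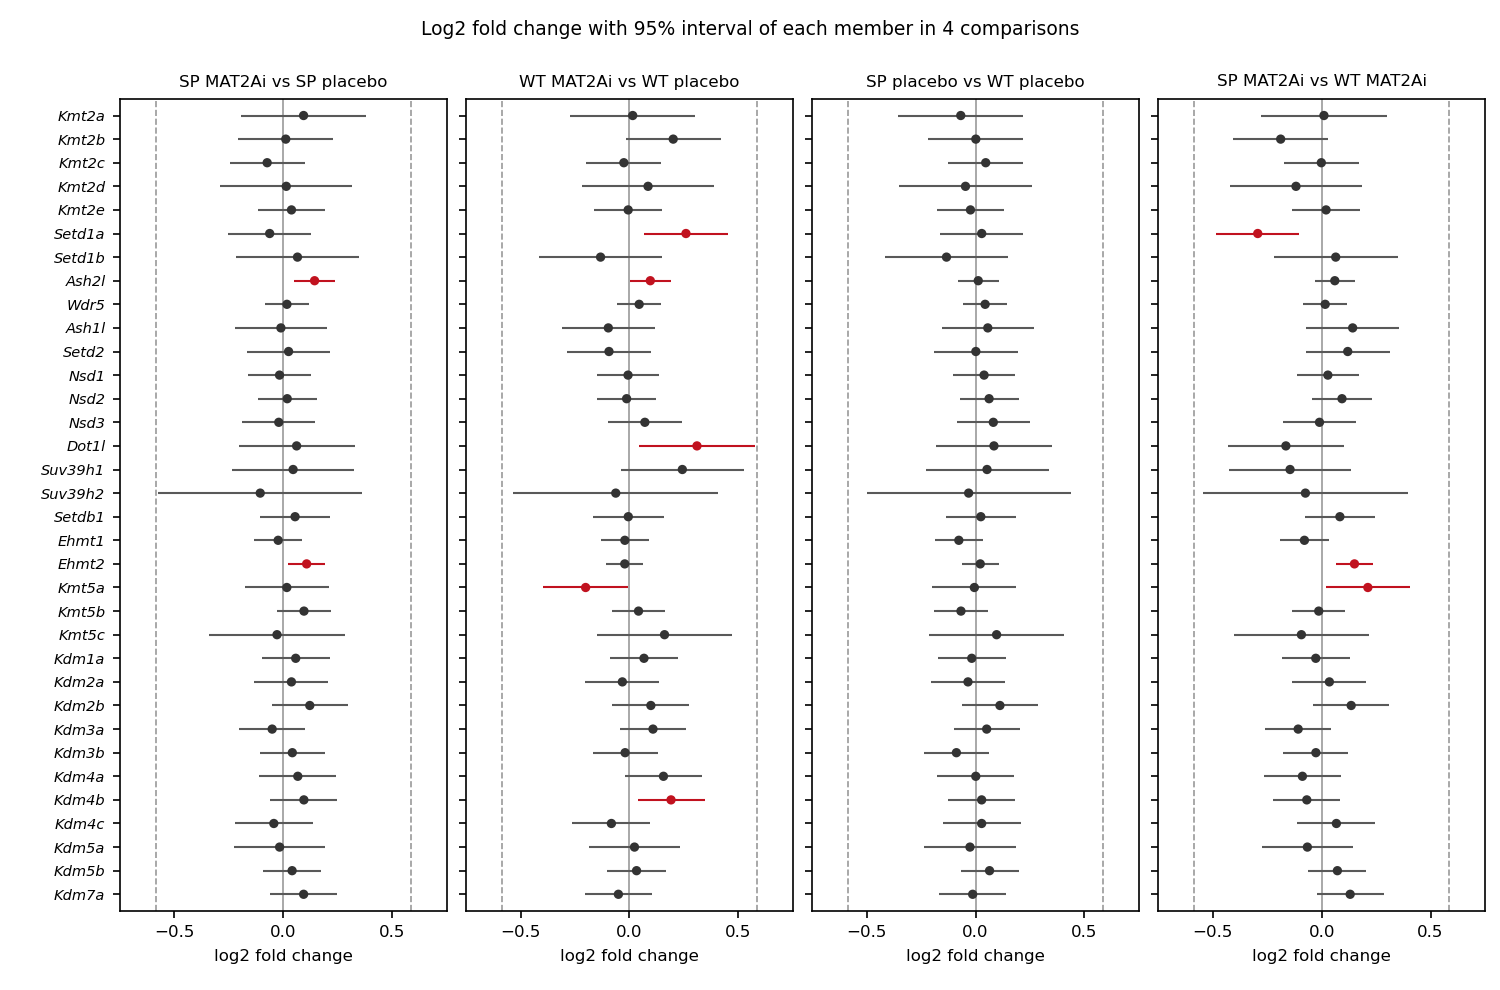
Log2 fold change of each member (points) with its 95% interval (lines) in 4 comparisons from the edgeR model, members in order of role. Red marks an unadjusted p under 0.05, dashed lines mark 1.5-fold in either direction, and all intervals lie between the dashed lines.

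Pooling both genotypes or both treatments narrowed the intervals, and edgeR called no member. For MAT2Ai averaged over genotype 0 of 34 passed with edgeR, against 0.223% of all tested genes. DESeq2 called 1 member and 1.19% of all tested genes, and limma-voom 0 members and 0.433%. At an unadjusted p under 0.05 stood 2 members (5.88%), against 14.7% of all tested genes. *Ash2l* was at 0.12 ± 0.03 (edgeR, adjusted p = 0.131) and was the gene called by DESeq2 (adjusted p = 0.0252). *Kdm4b* followed at 0.14 ± 0.05 (adjusted p = 0.251), *Dot1l* at 0.19 ± 0.09 (adjusted p = 0.345) and *Kdm4a* at 0.11 ± 0.06 (adjusted p = 0.382, edgeR). Of the 34 values 25 were positive, 10 of them among the 11 demethylases, while 52.2% of all tested genes were positive. For SP averaged over treatment 0 of 34 passed with edgeR, against 1.33% of all tested genes. DESeq2 called 1 member and 5.53% of all tested genes, and limma-voom 0 members and 8.30%. At an unadjusted p under 0.05 stood 1 member (2.94%), against 19.6% of all tested genes. It was *Ehmt2*, at 0.09 ± 0.03 (edgeR, adjusted p = 0.112), which passed with DESeq2 (adjusted p = 0.0154). *Kdm2b* was at 0.12 ± 0.06 (adjusted p = 0.258), *Ehmt1* at -0.08 ± 0.04 (adjusted p = 0.259) and *Setd1a* at -0.13 ± 0.06 (adjusted p = 0.263, edgeR).

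Whether the inhibitor acted differently in the 2 genotypes was tested by the interaction term. With edgeR, DESeq2 and limma-voom 0 of 34 members passed, and of all tested genes 0.00% passed with edgeR, 0.00619% with DESeq2 and 0.00% with limma-voom. At an unadjusted p under 0.05 stood 2 members (5.88%), against 5.59% of all tested genes. They were *Setd1a*, at -0.32 ± 0.13, and *Ehmt2*, at 0.13 ± 0.06, both with an adjusted p of 0.842 (edgeR). *Kmt5a* was at 0.22 ± 0.13 and *Kdm3a* at -0.16 ± 0.10, with the same adjusted p. Without WT MAT2Ai 2 they were at 0.13 and -0.11, and without replicates 2, 3 and 4 of that group *Kmt5a* was at 0.03. Outside 1.5-fold reached the intervals of *Setd1a*, *Dot1l*, *Suv39h1*, *Setd1b*, *Kmt5c* and *Suv39h2*, so for these 6 a difference of that size between genotypes was within the interval.

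Members tended to be high or low together in single libraries, across group borders. The same counts were not made over all tested genes or over other long transcripts. Joint movement is therefore not shown to be particular to the members. The median over members of the log2 difference from a member's own mean ran from -0.12 in WT placebo 2 to 0.16 in WT MAT2Ai 5. In WT placebo 1 to 5 there were 4, 5, 15, 20 and 28 members above their own mean, and in WT MAT2Ai 1 to 5 there were 19, 22, 11, 3 and 30. In SP placebo 1 to 5 the numbers were 24, 6, 13, 11 and 21, and in SP MAT2Ai 1 to 5 they were 11, 22, 27, 23 and 18. The widest spread lay within 1 group, WT MAT2Ai, from 3 members to 30. The share of reads outside annotated genes was highest, at 5.36% to 5.49%, in 4 libraries, WT MAT2Ai 2 and 5, SP placebo 1 and SP MAT2Ai 4, in which 22, 30, 24 and 23 members were above their mean. The nuclear RNA *Malat1* measured 1679, 1422, 1019 and 1393 CPM in these 4. WT MAT2Ai 4, in contrast, had 1109 CPM of *Malat1* and a share of 4.88% with 3 members above their mean. WT placebo 5, with 28 members above their mean, had a share of 4.34% and 476 CPM of *Malat1*. SP MAT2Ai 3, with 27, had 4.28% and 668 CPM. The part of nuclear RNA in the members' values was not tested.

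**Figure D4:**
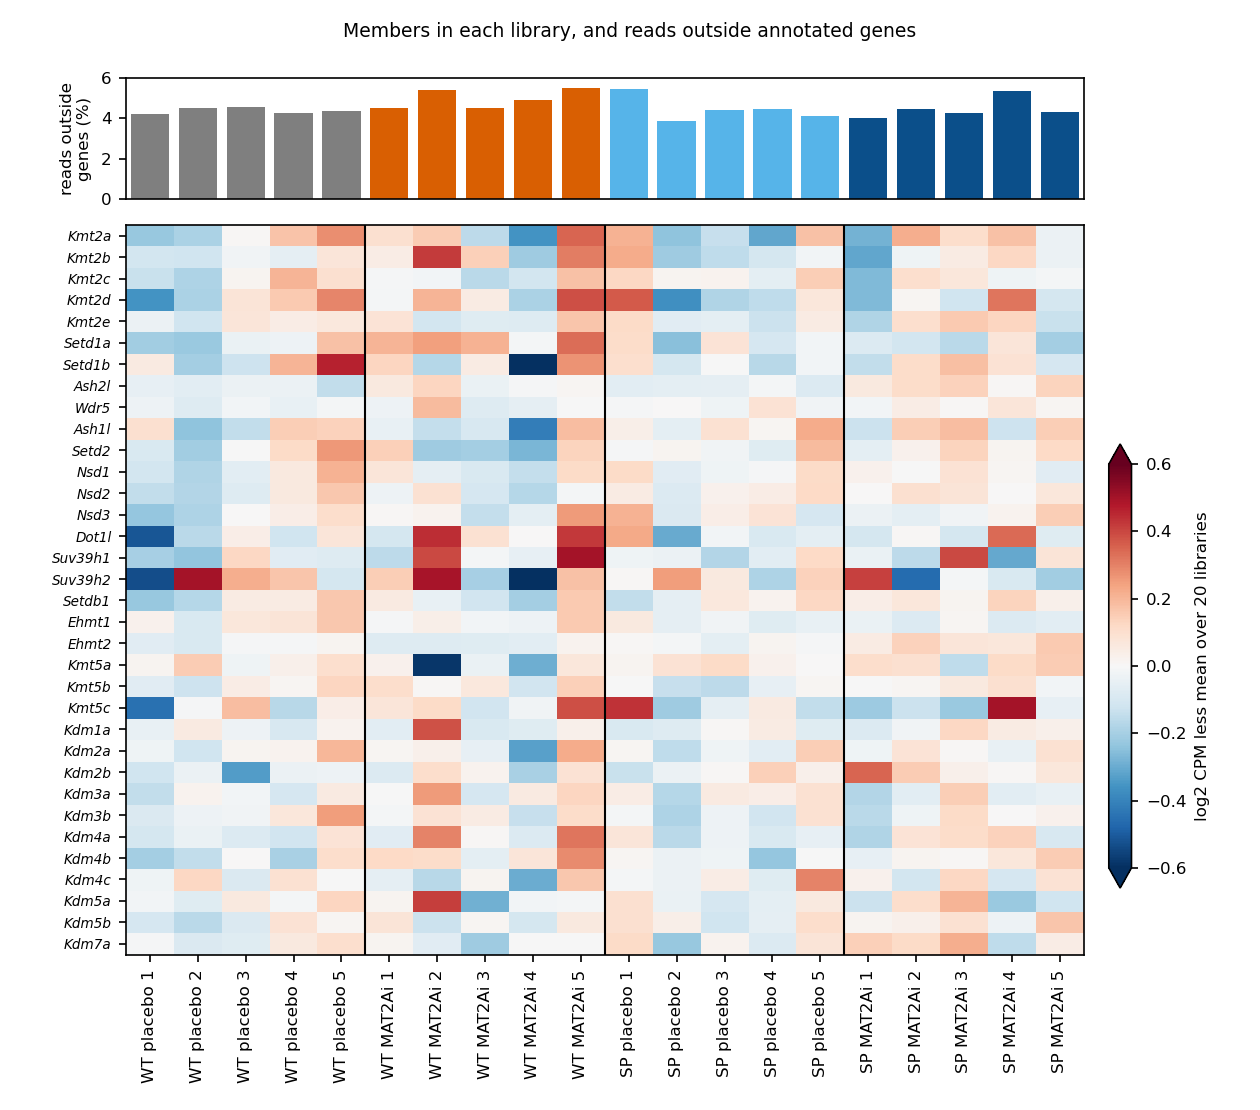
Map of the members (rows, in order of role) in the 20 libraries (columns), as log2 CPM less the member's mean over all libraries, with colors limited at 0.6 in either direction. Bars give reads outside annotated genes as a percentage of uniquely aligned reads, colored by group. WT MAT2Ai 5 is red for most members and WT MAT2Ai 4 blue.

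The variable members were few. *Suv39h2*, the least abundant, ranged 2.42-fold between its lowest and highest library and *Setd1b* 2.08-fold. *Kmt5c* and *Dot1l* had ranges of 1.93-fold and 1.94-fold. The 4 libraries with the most reads outside genes were also the 4 highest for *Dot1l*, at 27.3, 27.0, 23.5 and 25.4 CPM, while all others lay at 21.4 CPM or below. *Kmt5a* was lowest in WT MAT2Ai 2, while *Wdr5*, *Kdm1a*, *Kdm3a*, *Kdm5a*, *Kmt2b* and *Dot1l* were highest in that same library.

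Partners and further enzymes of histone lysine methylation were not called by edgeR either. Of 70 such genes 66 were tested, and 0 passed in any of the 7 comparisons with edgeR. Between 1 and 8 of them, or 1.52% to 12.1%, had an unadjusted p under 0.05 in a comparison, against 3.75% to 21.8% of all tested genes, and DESeq2 called 1 gene in 1 comparison and limma-voom 0. That gene was *Rcor1*, the scaffold that couples KDM1A to histone deacetylases, in SP MAT2Ai against WT MAT2Ai. It had a log2 fold change of 0.37 ± 0.11 (edgeR, adjusted p = 0.0738) and an adjusted p of 0.0299 with DESeq2. Without WT MAT2Ai 5 it also passed with edgeR (adjusted p = 0.0351). In WT MAT2Ai against WT placebo *Rcor1* was at -0.29 ± 0.11 (adjusted p = 0.234), and the interaction was 0.49 ± 0.16 (adjusted p = 0.842, edgeR). Of the 12 partners of the H3K4 complexes, 9 had positive values in SP MAT2Ai against SP placebo and 6 in WT MAT2Ai against WT placebo. Of the 18 further methyltransferases these were 10 and 9, of the 11 further demethylases 5 and 6, of the 11 readers and partners at H3K9 and H4K20 8 and 6, and of the 14 partners of DOT1L and KDM1A 11 and 10. In SP mice the smallest p belonged to *L3mbtl3*, a reader of methylated lysines, at 0.30 ± 0.12 (edgeR, adjusted p = 0.833). In WT mice *Setmar* was at 0.30 ± 0.12 (adjusted p = 0.235), the dioxygenase gene *Kdm8* at 0.34 ± 0.14 (adjusted p = 0.249) and *Setd4* at 0.90 ± 0.37 (adjusted p = 0.252, edgeR). The value of *Setd4* ran from 0.33 without WT MAT2Ai 2 to 1.09 without WT placebo 3. Between the genotypes *Smyd2* was at 0.16 ± 0.07 under placebo (adjusted p = 1), and *Setd3* was at 0.20 ± 0.08 under the inhibitor (adjusted p = 0.137, edgeR), or 0.11 without WT MAT2Ai 2.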

How the data were processed

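Poly(A) RNA from kidney cortex of 20 mice was sequenced. The labels also speak of nuclei isolated from cortex, while the molecule is given as total RNA. Mitochondrial genes held 12.4% to 22.2% of the gene counts of a library. Which material was used was not tested. Per the labels and methods, the authors used STAR 2.5.2 with mm10 and deposited unscaled counts for each gene, which come from htseq-count on the annotation of Ensembl release 78. The strand setting is not given in the sources used here. Symbols and exonic lengths came from GENCODE M21 (GRCm38), which named 42546 of 43430 genes. The 5 summary lines per file stayed out of library sizes (outside genes 3.87% to 5.49%, ambiguous 0.702% to 0.794% of unique reads). Depth was 53296824 to 79339949 gene counts.

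Counts were filtered with filterByExpr, scaled by TMM and tested with the edgeR 4.0.16 quasi-likelihood test (R 4.3.3) in 1 model of all 4 groups without covariates. P values were adjusted by Benjamini-Hochberg over all 16152 tested genes, with a threshold of 0.05. The SE is the log2 fold change divided by the square root of F, and 95% intervals use the t distribution of the model without adjustment for the number of genes. CPM and RPKM were computed from the counts with TMM scaling. The tests share control groups. The labels number the replicates without naming animals, and each replicate was taken to be a separate mouse. Same-numbered libraries did not deviate together (mean correlation -0.0158 over 30 pairs, 4 over 0.1), so the number was no block in the main model. The alternatives were DESeq2 1.42.0, limma-voom (limma 3.58.1), other size factors, no filter, a length correction, the compared groups alone, the replicate block, and fits without libraries. Scripts were tested on simulated data. In each comparison the members and the other genes with the up to 4 smallest p were to be named, of which the text gives a part for the other genes. Members and lists were chosen with earlier results of these data known.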

Additional observations from a re-analysis of the deposited data

Results flagged for a closer look

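Single libraries stood far from the other 4 of their group in 10 of 136 groups of 5, by the ratio of the gap to the range (Dixon's critical value 0.71). Chance alone gives about 1 in 20, or 6.8 groups, so the number is near that level. WT MAT2Ai 2 was high for *Wdr5* (39.9 CPM, the others 33.2 to 34.9) and for *Kdm1a* (32.0 CPM, the others 23.0 to 25.05). It is the library with high injury markers. SP MAT2Ai 4, which had many reads outside genes, was high for *Dot1l* (25.4 CPM, the others 18.7 to 20.2) and *Kmt5c* (32.7 CPM, the others 19.8 to 22.3). WT MAT2Ai 5 was high for *Ehmt2* (105 CPM, the others 98.3 to 99.0). SP MAT2Ai 3 was low for *Kmt5a* (89.8 CPM, the others 107 to 111). SP placebo 4 was high for *Wdr5* (37.2 CPM, the others 34.3 to 35.0) and low for *Kdm4b* (13.7 CPM, the others 15.7 to 16.2). SP placebo 2 was low for *Kdm3a* (15.9 CPM, the others 18.4 to 19.1), and WT placebo 5 was low for *Ash2l* (23.9 CPM, the others 25.4 to 25.9). The causes were not tested.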

How the results depend on the processing

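The number of members called was 0 in 193 of 200 combinations of comparison and setting, over the 29 alternatives. The exceptions in SP MAT2Ai against WT MAT2Ai were 2 with DESeq2 (*Ehmt2*, *Setd1a*), 1 with limma-voom (*Ehmt2*) and 1 with the length correction (*Ehmt2*). Of all 16152 tested genes these settings called 1203, 397 and 363. Leaving out 1 library at a time gave 0 to 1 there, with 1 without WT MAT2Ai 4 (*Setd1a*) and 1 without WT MAT2Ai 5 (*Ehmt2*). All genes called in these 2 fits were 774 of 16325 and 769 of 16352. DESeq2 called 1 member for MAT2Ai averaged over genotype (*Ash2l*) and 1 for SP averaged over treatment (*Ehmt2*), against 1.19% and 5.53% of all tested genes. The causes were not tested. With the replicate block 0 members passed in every comparison, so it changed no call. Without SP placebo 1 and 2 the number was 0 in every comparison. Of 1600 values of named genes, 1589 kept their sign and side of the threshold, 10 newly passed and 1 turned sign, *Hcfc2* in the interaction at -0.00672 without WT MAT2Ai replicates 2, 3 and 4. With 5 mice per group the intervals bound members between groups to within 1.5-fold, while smaller differences may be missed, most of all for *Suv39h2* with 37 to 107 reads per library.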
